A study of Mus musculus with 9 samples.

Results

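The differentiation of inguinal white preadipocytes in culture was followed by DNA methylation at CpG cytosines in 3 of the 9 reduced representation bisulfite sequencing (RRBS) libraries of the series, namely white cells before induction (WAT D0) and at day 4 (WAT D4) and day 6 (WAT D6). All 838481 autosomal CpG cytosines of the deposited table were used, and a difference was kept only where it was present at both later days and at several neighbouring cytosines. Preadipocytes came from BL6 mice of 3 weeks of age, were enriched from the stromal vascular fraction and grown to confluence, and were differentiated in a medium that held rosiglitazone, dexamethasone, isobutylmethylxanthine and insulin. Libraries of the same series served for comparison.

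The first set held 2 later white libraries, BWAT D4 and BWAT D6, from a separate set of white preadipocytes exposed to norepinephrine during differentiation (brown-induced white adipocytes), so that culture and norepinephrine cannot be told apart in them. The second held 4 libraries of interscapular brown cells taken through the same protocol, at day 0 (BAT D0), day 4 (BAT D4), day 6 (BAT D6) and day 6 after 4 h of norepinephrine (BAT D6 NE). Each condition was 1 library, and no source used here says how the mice were divided between cultures. WAT D0 was the base of every white comparison, so WAT and BWAT differences share its error, while white and brown differences share no library. The values were percents with a depth of at least 10 reads and no read counts, and the depth behind each is otherwise unknown.

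CpG methylation is copied to daughter strands by maintenance methyltransferases and can be removed by oxidation through TET enzymes or by copying without maintenance. Levels at promoters within CpG islands are usually low, whereas introns and intergenic DNA are mostly methylated and lose methylation locally where transcription factors open an enhancer. Fat cell formation runs through a cascade in which C/EBP beta, C/EBP delta and the glucocorticoid receptor act early and PPAR gamma and C/EBP alpha act late, and the genes they activate serve glucose uptake, NADPH supply and triglyceride storage.

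Regions with lower methylation after day 0 are shown first for 6 genes, on short stretches that can be read base by base. These 6 were chosen with their values known, and the other fallen fragments are not printed. The first 4 passed the test described next and the last 2 did not. Each is printed 5′ to 3′ on the + strand of NCBIM37 (mm9), with a short flank. Capitals mark the measured cytosines, a capital C being a cytosine of the + strand and a capital G the cytosine of the opposite strand.
Mmd, chr11:90106299-90106464, + strand: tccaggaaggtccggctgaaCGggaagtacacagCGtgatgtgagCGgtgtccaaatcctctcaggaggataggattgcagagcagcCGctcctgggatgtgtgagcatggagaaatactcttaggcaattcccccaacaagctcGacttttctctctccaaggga
Pgd, chr4:148529849-148529974, + strand: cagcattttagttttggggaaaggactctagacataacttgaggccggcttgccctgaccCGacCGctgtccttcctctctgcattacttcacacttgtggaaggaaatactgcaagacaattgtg
Sik3, chr9:45831773-45831933, + strand: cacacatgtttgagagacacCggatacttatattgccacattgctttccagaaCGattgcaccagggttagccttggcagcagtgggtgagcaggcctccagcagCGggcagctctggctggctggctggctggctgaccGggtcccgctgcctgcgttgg
Hk2, chr6:82721127-82721309, + strand: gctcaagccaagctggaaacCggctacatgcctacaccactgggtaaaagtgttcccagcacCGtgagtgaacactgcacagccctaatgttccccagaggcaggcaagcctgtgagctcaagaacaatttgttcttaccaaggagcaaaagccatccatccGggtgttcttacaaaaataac
Mlxipl, chr5:135590306-135590497, + strand: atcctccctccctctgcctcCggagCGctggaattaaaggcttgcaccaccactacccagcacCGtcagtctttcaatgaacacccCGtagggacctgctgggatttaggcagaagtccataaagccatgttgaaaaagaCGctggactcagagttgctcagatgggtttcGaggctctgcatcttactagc
Nfia, chr4:97503543-97503708, + strand: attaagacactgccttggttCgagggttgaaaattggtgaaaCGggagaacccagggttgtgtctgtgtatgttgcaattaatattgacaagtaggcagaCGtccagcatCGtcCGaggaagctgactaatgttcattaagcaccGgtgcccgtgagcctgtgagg
The regions of Mmd, Sik3, Hk2, Mlxipl and Nfia lie in introns. That of Pgd lies in an annotated exon outside coding and untranslated sequence, which belongs to a transcript with a retained intron.

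A loss was looked for in fragments, defined as runs of at least 4 measured cytosines with gaps of at most 300 bp, of which 67233 were tested. A fragment was taken as lower or higher when its mean level lay at least 10 percentage points from WAT D0 at both WAT D4 and WAT D6, with at least 3 cytosines of at least 2 CpGs past 10 points at both days in that direction and none in the other. This gave 187 lower fragments (0.278% of those tested) and 177 higher ones (0.263%). Limma was then run on logits, computed as log2((level + 1)/(100 − level + 1)), to compare the 4 later white libraries with WAT D0, and the spread came from all 9 libraries. Only a fragment that met the difference rule and had a Benjamini-Hochberg adjusted p below 0.05 over all fragments was said to have fallen or risen.

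By both criteria 14 fragments fell (0.0208% of those tested) and 0 rose (0%). Limma alone called 16 fragments lower (0.0238%) and 3 higher (0.00446%), and at an unadjusted p below 0.05 it placed 1809 lower and 1978 higher. The smallest adjusted p of a higher fragment was 0.118. The 14 fragments held 86 cytosines, of which 77 were past 10 points at both days, and all 14 were past 10 points on each strand taken alone. Their median level was 86.9% in WAT D0, 42.7% in WAT D4, 39.2% in WAT D6, 41.1% in BWAT D4 and 38.2% in BWAT D6. The drop was thus present by day 4, and the fragments stayed partly methylated, between 16.8% and 64.5% in WAT D6. In each of them the 4 later white libraries lay within 12.7 points of each other, and WAT D0 was at least 20.7 points above the highest of them. The test compares these same libraries, so it favours fragments with such closeness and such a gap. Since each level is an average over the culture, a partial loss in every cell and a full loss in some cells cannot be told apart. Leaving out BAT D0, the only library of its mean, cannot change the white comparison. The count depended on which of the other libraries were in the fit. It was 0 with the 5 white libraries alone, 1 without both BWAT libraries, and 1, 2, 6, 1, 5, 4 and 5 without WAT D4, WAT D6, BWAT D4, BWAT D6, BAT D4, BAT D6 and BAT D6 NE in turn, the 1 being Pgd each time, while the level differences given here do not depend on the fit.

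**Figure D1:**
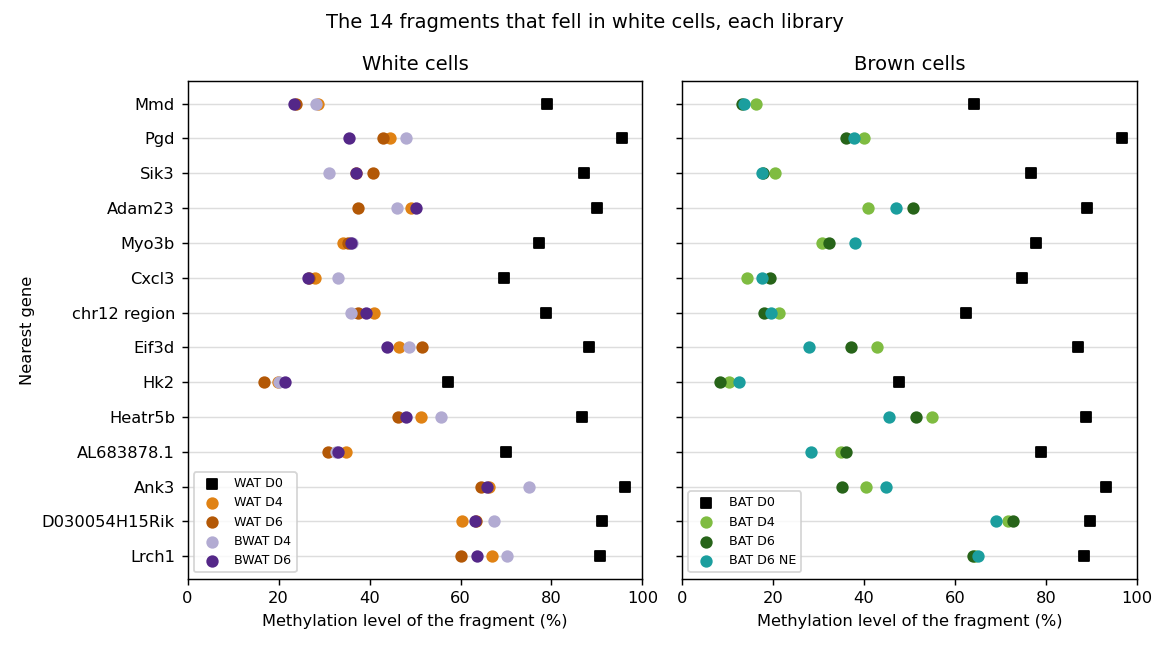
Methylation level (%) of the 14 fragments that fell in white cells, 1 point per library, with the day 0 library as a black square and white (left) and brown (right) libraries in separate panels. WAT D0 lies at least 20.7 points above every later white library, and BAT D0 at least 17.0 points above every later brown library. The white gap follows in part from the choice of these fragments.

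The largest fall in percentage points was at Mmd, which encodes a membrane protein of the PAQR family first found in maturing macrophages. Its fragment of 9 cytosines (chr11:90106319-90106444) lies in an intron 57383 bp from the start of the gene. The level was 78.9% in WAT D0, 28.7% in WAT D4, 23.8% in WAT D6, 28.1% in BWAT D4 and 23.3% in BWAT D6, a change of −3.34 ± 0.25 (SE) on the logit scale (adjusted p = 0.0102). Every one of the 9 cytosines was past 10 points at both days. In the profile of single cytosines the day 0 levels ran from 36.2% to 95.4%, and those of WAT D6 from 13.0% to 30.8%. Each strand gave the same picture, with a forward mean of 87.5% that became 26.3% and 28.5%, and a reverse mean of 72.0% that became 30.6% and 20%.

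Pgd encodes 6-phosphogluconate dehydrogenase, which makes NADPH in the pentose phosphate pathway, the reductant of fatty acid synthesis. Its 4 cytosines (chr4:148529909-148529914) had levels of 95.5% in WAT D0, 44.5% in WAT D4, 43.0% in WAT D6, 48.0% in BWAT D4 and 35.6% in BWAT D6 (−4.54 ± 0.28, adjusted p = 0.00602). The 4 cytosines, of 2 neighbouring CpGs, ran from 92.9% to 98.1% at day 0 and from 35.0% to 55.0% in WAT D6. This fragment had the smallest adjusted p of the 14.

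Sik3 encodes a salt-inducible kinase that phosphorylates CRTC coactivators and class IIa histone deacetylases and is itself held in check by cAMP signalling. Its intronic fragment (chr9:45831793-45831913, 6 cytosines) had levels of 87.2%, 37.1% and 40.8% in WAT D0, D4 and D6 and of 31.0% and 37.0% in BWAT D4 and D6 (−3.46 ± 0.26, adjusted p = 0.0102). Hk2 encodes hexokinase 2, the insulin-responsive enzyme that traps glucose in muscle and fat. Its intronic fragment, 3230 bp from the gene start (chr6:82721147-82721289, 4 cytosines), had levels of 57.3%, 19.8% and 16.8% in WAT D0, D4 and D6 and of 20.1% and 21.4% in BWAT D4 and D6 (−2.41 ± 0.27, adjusted p = 0.0457). Hk2 started lowest of the 14 fragments and reached the lowest level of WAT D6 among them.

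**Figure D2:**
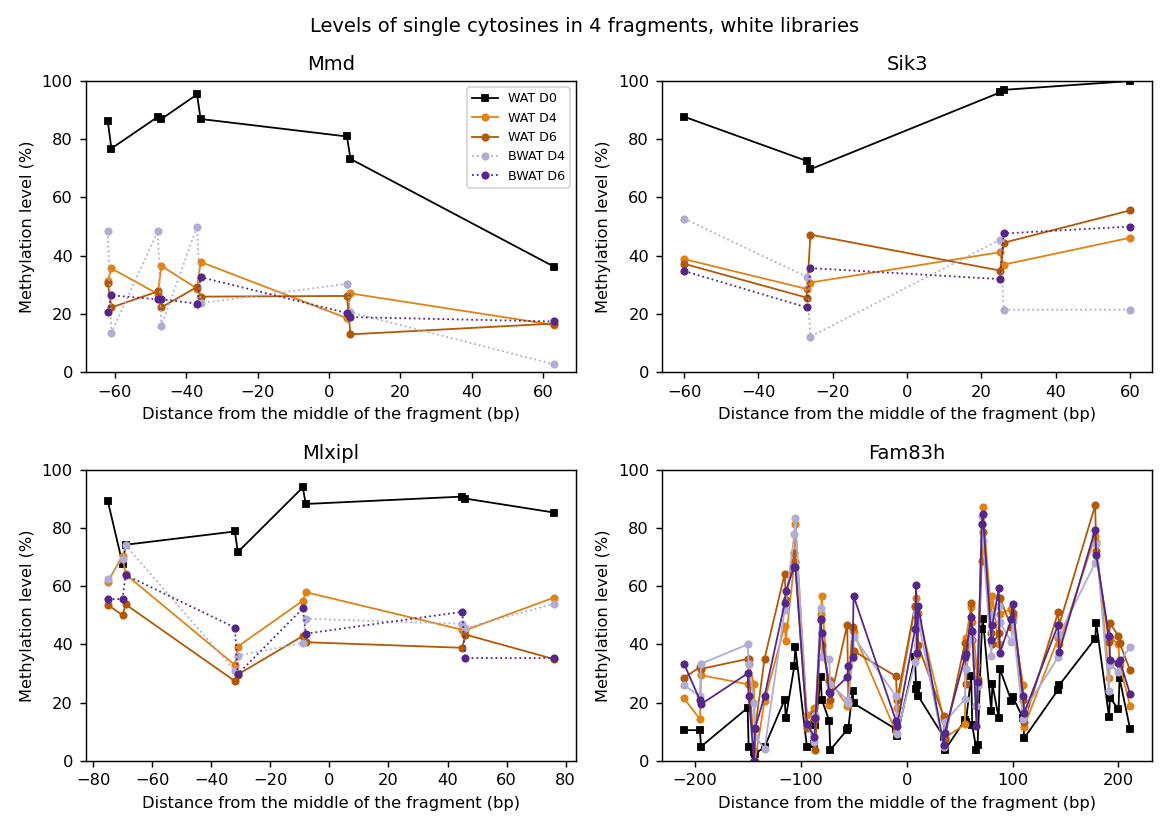
Methylation level (%) of single cytosines in 4 fragments against the distance from the fragment's middle (bp), in the 5 white libraries. In Mmd and Sik3 every cytosine of WAT D4 and WAT D6 lies below WAT D0, in Mlxipl this holds for 9 of 10, and in Fam83h 38 of 56 cytosines lie at least 10 points above WAT D0 at both days.

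Another 4 introns held a fallen fragment with a high day 0 level. Adam23, an integrin-binding member of the ADAM family without protease activity, had 90.1% in WAT D0, 49.2% in WAT D4 and 37.5% in WAT D6 (adjusted p = 0.0271). Myo3b, a class III myosin, had 77.3%, 34.2% and 35.2% (adjusted p = 0.0179). Heatr5b, which codes for a HEAT repeat protein, had 86.6%, 51.4% and 46.2% (adjusted p = 0.0446). Eif3d, a subunit of the translation initiation factor eIF3, had 88.2%, 46.4% and 51.6% (adjusted p = 0.0489), and its fragment also lies in the promoter window of the overlapping gene Gm17638. The fallen fragments reached beyond gene bodies as well. One lay 1257 bp from Cxcl3, a chemokine that draws neutrophils, with 69.5%, 27.9% and 26.6% (adjusted p = 0.0446), and one 6404 bp from AL683878.1, annotated as a miRNA gene, with 69.9%, 34.8% and 30.9%.

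The other 4 of the 14 are named here after their values were seen. They were introns of Ank3 (ankyrin G, a membrane-skeleton adaptor; 96.1%, 66.3% and 64.5% in WAT D0, D4 and D6) and Lrch1 (90.8%, 67.0% and 60.1%), a fragment 5241 bp from D030054H15Rik (91.2%, 60.3% and 63.4%), and one with no gene within 10000 bp (chr12:40653812-40653953). The last had 78.9%, 40.9% and 37.4%. Fragments that passed limma but missed the difference rule included the following. Zfp113 (97.5% in WAT D0, 86.4% in WAT D4 and 84.6% in WAT D6) and Crim1 (3.70%, 0% and 0%) were lower, with 1 cytosine each past 10 points. Cuedc1 (1.09%, 13.7% and 12.8%) and Gm20388 (2.34%, 12.7% and 12.2%) were higher.

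To find which falls were specific to white cells, the same fragments were read in brown cells. The white and brown level differences share no library, but the spread in limma came from all 9 libraries, so the brown libraries had a part in the choice of the 14 and the brown test is not independent of it. The median level of the 14 fragments was 83.0% in BAT D0, 37.4% in BAT D4, 35.6% in BAT D6 and 33.1% in BAT D6 NE. Every fragment was lower in every later brown library than in BAT D0, by at least 17.0 points, and 12 of the 14 passed limma in brown cells too, where it called 43 of all fragments lower (0.064%) and 14 higher (0.0208%). Mmd had 64.1%, 16.4%, 13.2% and 13.6% in the order BAT D0, D4, D6 and D6 NE. Pgd had 96.7%, 39.98%, 36.0% and 37.7%. Hk2 had 47.7%, 10.3%, 8.32% and 12.5%. The 2 that did not pass in brown cells were D030054H15Rik (89.7% to 71.6% and 72.7% at days 4 and 6, adjusted p = 0.0549) and Lrch1 (88.4% to 64.4% and 64.0%, adjusted p = 0.0515).

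The test of the difference between the white and the brown change passed for none of the 14. Its estimates, white minus brown on the logit scale, ran from −0.71 to 1.28, and the smallest unadjusted p was 0.0092, at Cxcl3, where the brown fall (74.6% to 14.3% and 19.3%) was the larger one. For Mmd the interval of 2 SE around the difference was −0.74 to 0.70, and for Pgd it was −0.13 to 1.48. A difference within these bounds is not excluded, so the lack of a pass does not show equal changes. Over all fragments this test passed once (0.00149%), in a fragment that met no difference rule, against 3094 at an unadjusted p below 0.05.

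The wider set of 187 lower fragments is given as a description. Near the threshold, 29 of them had a smaller difference of 10 to 11 points and 126 fragments had one of 9 to 10 points and stayed outside, and for the higher fragments these numbers were 45 and 199. Its levels in WAT chose the members, and the BWAT differences share WAT D0 with them. The median was 65.4% in WAT D0, 46.2% in WAT D4 and 40.9% in WAT D6, with 47.9% and 41.8% in BWAT D4 and D6. WAT D6 was further from day 0 than WAT D4 in 131 of the 187. The brown libraries took no part in the choice, and there the median was 63.6% in BAT D0, 45.0% in BAT D4, 41% in BAT D6 and 38.0% in BAT D6 NE. The mean of BAT D4 and D6 was at least 10 points below BAT D0 in 110 of the 187 (58.8%, against 1.26% of all fragments). It was at least 10 points above BAT D0 in 4 of the 187, against 2.04% of all fragments. The shares of all fragments or CpGs given beside such sets, here and below, were not matched for level. Under 30% in WAT D0 lay 19224 of all 67233 fragments but 8 of the 187, and low fragments have little room to fall. Of the 97 lower fragments that were past 10 points on both strands, 78 (80.4%) were at least 10 points lower in brown cells.

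The 177 higher fragments differed less from day 0. Their median was 42.7% in WAT D0, 57.5% in WAT D4 and 57.9% in WAT D6, with 50.7% and 54.8% in BWAT D4 and D6. In brown cells it was 46.6% at day 0, 51.5% at day 4 and 55.5% at day 6. The brown mean of days 4 and 6 was at least 10 points above day 0 in 58 of the 177 (32.8%, against 2.04% of all fragments), and in 32 of the 61 (52.5%) that were past 10 points on both strands. Over all 67233 fragments the white and the brown change had a correlation of 0.277, where fragments are not replicates.

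**Figure D3:**
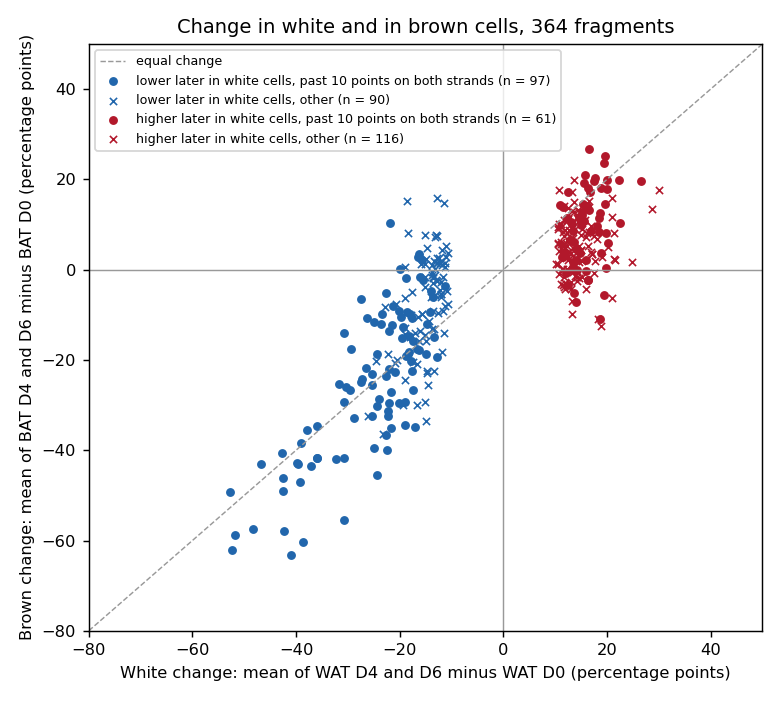
White change (mean of WAT D4 and D6 minus WAT D0) against brown change (mean of BAT D4 and D6 minus BAT D0), both in percentage points, for the 187 lower (blue) and 177 higher (red) fragments, with circles for those past 10 points on both strands and crosses for the others. Of the lower fragments 110 lie at least 10 points down in brown cells as well. On the opposite side by at least 10 points lie 4 of the 187 lower and 3 of the 177 higher fragments. Of all fragments 2.04% were that much higher and 1.26% that much lower in brown cells.

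In brown cells 43 lower and 70 higher fragments differed by under 5 points from day 0. The share of all fragments that did so was not counted, so these numbers mark no group particular to white cells. None of the 43 and 70 passed the test of the white against the brown change. That test was below an unadjusted p of 0.05 in 26 of the 187 lower and 24 of the 177 higher fragments, against 3094 of all 67233. The white difference that chose these fragments is part of that test, so the counts are no support for a change specific to white cells. A few fragments past 10 points on both strands and with an unadjusted p below 0.05 in that test are named after their values were seen, whatever their brown difference. They were chosen by this p as well, so their p-values are no support for such a change either. Mipol1 had 77.7%, 47.5% and 53.0% in WAT D0, D4 and D6 and 55.2% and 56.4% in BWAT, beside 77.1%, 69.6% and 71.7% in BAT D0, D4 and D6 (white minus brown −0.96 ± 0.40, unadjusted p = 0.0408), and the mean of BAT D4 and D6 differed from BAT D0 by −6.45 points. A fragment 1427 bp from Aoah, an enzyme that removes acyl chains from lipopolysaccharide, had 83.2%, 64.6% and 61.9% in WAT and 79.4%, 78.3% and 80.8% in BAT, within 5 points of day 0 (−1.31 ± 0.33, unadjusted p = 0.0035). Among the higher ones, Auts2 had 30.8%, 51.5% and 47.4% in WAT and 52.0%, 48.0% and 34.2% in BAT (1.69 ± 0.48, unadjusted p = 0.0069). It is one of 3 among the 177 higher fragments that were at least 10 points lower in brown cells, against 1.26% of all fragments.

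A second use of the strands was made where the choice and the reading rest on different reads. In 63016 fragments with at least 2 cytosines on each strand, those at least 10 points from WAT D0 at both days on one strand were read on the other. Of 816 fragments chosen as lower on the forward strand, 125 (15.3%) were also past 10 points at both days on the reverse strand, against 1.28% of all fragments. Of 863 chosen as higher, 88 did so (10.2%, against 1.54%). The median of the other strand was −1.62 and 2.10 points in these sets, so most fragments picked from one strand did not keep a difference of 10 points on the other.

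Single CpGs gave the same order of size. Of 312084 CpGs with both strands measured, 687 (0.22%) were past 10 points below WAT D0 on both strands and at both days and 996 (0.319%) above it. For scale, 815 CpGs had their strands past 10 points in opposite directions. The CpGs lower on both strands had a median of 72.9% in WAT D0, 47.9% in WAT D4 and 43.3% in WAT D6, and 47.5% of them were at least 10 points lower in brown cells, against 2.23% of all CpGs with both strands. Of those higher on both strands, 35.3% were at least 10 points higher in brown cells, against 3.90%.

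Promoters took a small place among the lower fragments. Of the 187, 6.42% lay in promoters (1000 bp upstream to 500 bp downstream of a transcript start), 11.8% in exons, 40.1% in introns and 41.7% between genes, whereas of all fragments 21.6%, 12.5%, 32.6% and 33.2% did. The median distance from a start site was 12980 bp, against 8259 bp for all fragments and 8458 bp for the 177 higher ones. The higher fragments lay in promoters in 9.60% of cases and in exons in 15.3%. Low promoters cannot fall by 10 points, which limits their share among the lower fragments by construction.

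**Figure D4:**
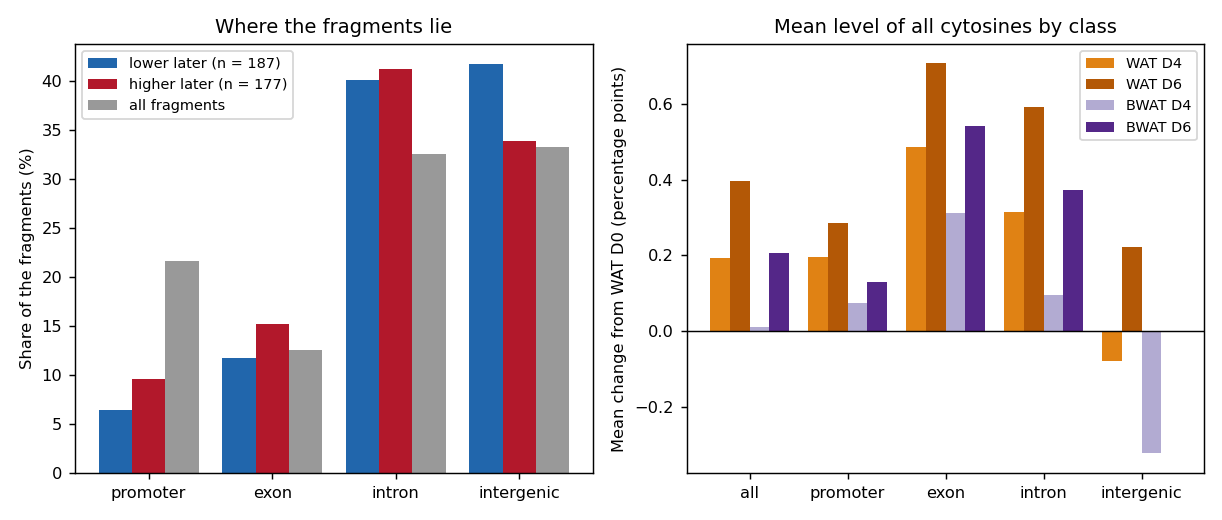
Left, share (%) of the 187 lower, the 177 higher and all fragments in promoters, exons, introns and intergenic DNA. Right, mean change from WAT D0 in percentage points over all cytosines and by class, for the 4 later white libraries; exons were highest and the intergenic mean of BWAT D4 was the lowest, at −0.324.

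The genome-wide level hardly moved beside these local losses. The mean over all cytosines was 40.8% in WAT D0, 41% in WAT D4 and 41.2% in WAT D6. It was higher by 0.193 points in WAT D4 and by 0.397 points in WAT D6, on 19 of 19 chromosomes each time, and by 0.0106 and 0.207 points in BWAT D4 and D6, on 10 and 19 chromosomes. Exons were higher by 0.486 and 0.707 points and introns by 0.314 and 0.593 points in WAT D4 and D6. Intergenic cytosines differed by −0.079 points in WAT D4 and 0.223 points in WAT D6, with 5 and 17 chromosomes higher. With 1 library per condition these means have no replicate check.

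Genes of the fat cell program were then read from fixed lists, each fragment going to the nearest gene within 10000 bp. Of the fragments with such a gene 0.273% were lower and 0.267% higher. Among 38 adipogenic transcription factors, 37 had 286 fragments. At an unadjusted p below 0.05 in limma, 11 of these were lower and 17 higher, against 1302 and 1640 of all 52437 with a gene. By the difference rule 2 of the 286 were lower and 0 higher. One lay in an intron of Mlxipl, which codes for ChREBP, the glucose-sensing activator of lipogenic genes. Its 10 cytosines (chr5:135590326-135590477) had 83.0% in WAT D0, 52.7% in WAT D4, 41.5% in WAT D6, 50.9% in BWAT D4 and 46.8% in BWAT D6 (adjusted p = 0.075), and 79.0%, 40.4% and 34.3% in BAT D0, D4 and D6. The other lay in an intron of Nfia, a nuclear factor I protein that acts in brown fat cell formation. All 10 of its cytosines were past 10 points, with 55.6%, 22.0% and 27.7% in WAT D0, D4 and D6 and 44.0%, 17.7% and 11.8% in BAT D0, D4 and D6 (adjusted p = 0.154).

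Of 208 fragments at 36 genes of insulin signalling and glucose use, 9 were lower and 6 higher at an unadjusted p below 0.05 in limma. By the difference rule 2 were lower and 1 higher. Hk2 was the one that fell. The other lay 2571 bp from Pfkl, the liver-type phosphofructokinase of glycolysis, with 57.9%, 40.3% and 37.6% in WAT D0, D4 and D6 (adjusted p = 0.464), and the higher one in an exon of Igf1r, the receptor of insulin-like growth factor 1, with 64.7%, 75.9% and 78.5% (adjusted p = 0.700). Among 178 fragments of triglyceride and lipid droplet genes, 6 were lower and 4 higher at an unadjusted p below 0.05 in limma. By the difference rule 1 was lower. It covered coding sequence of Gpd1, the glycerol-3-phosphate dehydrogenase that makes the backbone of triglycerides, with 81.6%, 65.7% and 52.1% (adjusted p = 0.860).

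The brown and thermogenic list had 2 lower fragments of 151 and 0 higher by the difference rule, beside 3 lower and 5 higher at an unadjusted p below 0.05 in limma. The intron of Ucp3, a mitochondrial carrier of muscle and brown fat, had 74.6%, 46.2% and 45.6% in WAT D0, D4 and D6 and 68.1%, 39.7% and 30.9% in BAT D0, D4 and D6 (adjusted p = 0.223). Cox8b, a cytochrome oxidase subunit of heart, muscle and brown fat, had 48.5%, 19.5% and 26.9% in WAT, while BWAT D4 lay close to day 0 at 43.2% (adjusted p = 0.898). The white and beige fat list had 80 fragments with 0 lower and 0 higher, and limma called 0 of them, with 3 lower and 2 higher at an unadjusted p below 0.05. The clock list had 1 lower of 104, in an intron of Per2, a repressor of the circadian loop, with 71.7%, 38.8% and 25.6% in WAT D0, D4 and D6 (adjusted p = 0.255). At an unadjusted p below 0.05 in limma the clock list had 2 lower and 5 higher. The glucocorticoid and cAMP response list had 8 lower and 14 higher. Of the glucocorticoid and cAMP response list, Adcy5, an adenylyl cyclase, had 26.1%, 6.91% and 5.59% (adjusted p = 0.123) and Sik1, a relative of Sik3, had 44.8%, 58.9% and 63.7% (adjusted p = 0.724).

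Lists of the preadipocyte state had higher fragments and 0 lower ones by the difference rule. At an unadjusted p below 0.05 in limma, the preadipocyte and matrix list had 4 lower and 8 higher. The antiadipogenic list had 7 lower and 13 higher. Of 184 fragments of preadipocyte and matrix genes, 2 were higher. Fbn1, the microfibril protein fibrillin 1, had 41.6%, 57.9% and 67.4% in coding sequence (adjusted p = 0.857), and Timp2, an inhibitor of metalloproteinases, had 13.9%, 25.2% and 27.8% in an intron (adjusted p = 0.930). Of 419 fragments of antiadipogenic signals and factors, 3 were higher, in introns of Axin2, a feedback inhibitor of Wnt signalling, Notch2, a Notch receptor, and Smad3, a transducer of TGF beta. Their levels were 41.7%, 54.3% and 56.1% for Axin2, 56.5%, 71.9% and 67.1% for Notch2 and 74.3%, 85.1% and 84.4% for Smad3. These counts rest on few fragments and none of these fragments passed limma, so nothing particular to a list can be read from them.

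Markers of other cell types were looked at in the same way, since an unequal share of such cells would move methylation too. The endothelial (64 fragments), haematopoietic (24), smooth muscle and pericyte (29), skeletal muscle (81), epithelial (44), mesothelial (16) and neural and Schwann (38) lists had 0 lower and 0 higher fragments, in lists this small beside shares of 0.273% and 0.267%. At an unadjusted p below 0.05 the smooth muscle and pericyte list had 1 fragment lower and 4 higher of 29 and the skeletal muscle list 5 lower and 2 higher of 81, against 1302 lower and 1640 higher of 52437, and the other lists had 0 to 3 each way. The median promoter level was 6.57%, 10.04% and 11.5% in WAT D0, D4 and D6 over 5 smooth muscle promoters and 61.9%, 53.8% and 59.0% over 15 skeletal muscle promoters. Over the marker lists the median white changes of fragments lay between −0.580 and 1.41 points, beside 0.246 points for all fragments with a gene. The part of cell composition in the results was not tested, and expression, by which the labelled cell type could be checked, was not analysed here.

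A broad higher fragment lay in coding sequence of Fam83h, a casein kinase 1 partner needed for enamel formation. It held 56 cytosines (chr15:75834080-75834501) with 18.2% in WAT D0, 37.5% in WAT D4, 38.9% in WAT D6, 36.0% in BWAT D4 and 37.0% in BWAT D6, and 26.5%, 45.0% and 48.0% in BAT D0, D4 and D6. Both strands were higher, from 18.7% to 36.4% and 40.5% on the forward and from 17.8% to 38.6% and 37.3% on the reverse strand. Its adjusted p was 0.118, the smallest of the higher fragments. Higher fragments with a large mean difference included those of Dlgap4 (42.7%, 76.8% and 65.8% in WAT D0, D4 and D6) and Mlst8 (40.4%, 56.9% and 73.6%), a subunit of both mTOR complexes. In Mlst8 the BWAT libraries were at 49.7% and 46.6%, nearer to day 0 than to WAT D6.

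Sequence shared by the fragments was looked for in windows of 301 bp around their middles, with 10 short motifs on both strands. A C/EBP motif, TTGCNNAA, was in 25.1% of the 187 lower fragments, in 6.78% of the 177 higher ones and in 9.90% of all fragments outside promoters (9.20% of all). Among the 97 lower on both strands it was in 34%, and among the 14 that fell in 10, namely those of Mmd, Pgd, Adam23, Myo3b, Hk2, Heatr5b, Eif3d, Ank3, Lrch1 and the fragment without a gene. In the printed sequence of Mmd it lies inside the fragment. A nuclear factor I motif, TTGGCA, was in 35.8% of the lower fragments, 19.2% of the higher ones and 15.1% outside promoters, and the printed sequence of Sik3 holds 1. The lower fragments held it in 36.1% of the 97 with both strands, but in only 3 of the 14 that fell.

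The other motifs were nearer to the background. The nuclear receptor motif AGGTCA was in 23.5% of the lower, 19.8% of the higher and 18.0% of fragments outside promoters, the glucocorticoid motif ACANNNTGT in 10.2%, 7.91% and 7.76%, and the AP-1 motif TGANTCA in 12.3%, 10.7% and 7.86%. The remaining 5 were AAAGGTCA, which overlaps AGGTCA, the cAMP response motif TGACG, the EBF motif CCCNNGGG, the E-box CACGTG and the ETS motif CCGGAA. Their shares were 1.60%, 13.9%, 12.8%, 6.95% and 15.5% in the lower fragments and 1.36%, 16%, 11.5%, 5.83% and 19.2% outside promoters. The windows had a median of 7 CpGs and 50.8% GC in lower fragments and the same in all fragments outside promoters, and 9 CpGs and 53.8% GC in higher ones. A match is a description of these letters and was not tested as a binding site.

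**Figure D5:**
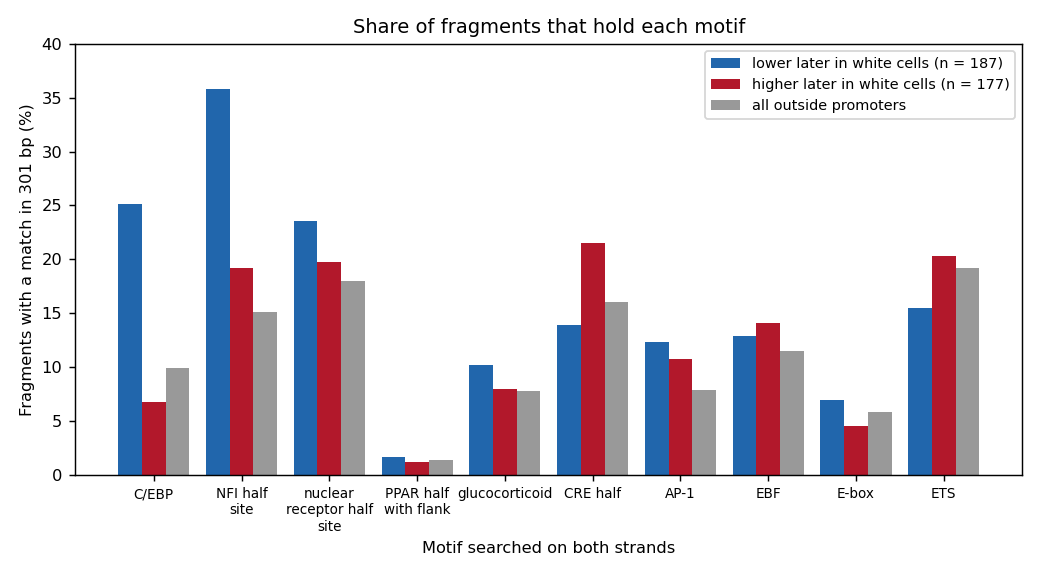
Share (%) of fragments with at least 1 match to each of 10 motifs in 301 bp around the middle, for the 187 lower, the 177 higher and all fragments outside promoters. C/EBP stands at 25.1% against 9.90% and the nuclear factor I motif at 35.8% against 15.1% in the lower fragments.

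Promoters were counted by the rule of at least 2 cytosines past 10 points at both days, all in 1 direction. Of 15694 promoter windows, 236 (1.5%) were lower and 425 (2.71%) higher by this rule, but the mean of the whole promoter was past 10 points at both days in only 25 and 34. Limma called 1 promoter lower and 0 higher, with 698 at an unadjusted p below 0.05. The 1 was Crim1 (3.70% in WAT D0 and 0% in every other library), which the rule did not count. The lower promoters had a median change of −2.52 points in white and 0.0406 points in brown cells, and the higher ones of 4.72 and 2.48 points.

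The lower promoters with the largest mean difference were those of Clstn3, Olfr517, Pabpc4, Ttn and Krt39. Clstn3 encodes a calsyntenin with a form that acts at the lipid droplet of fat cells. One of its promoter windows had 59.4% in WAT D0, 32.6% in WAT D4 and 37.5% in WAT D6, 48.4% and 31.2% in BWAT D4 and D6, and 81.0%, 41.8% and 29.1% in BAT D0, D4 and D6. Pabpc4, a poly(A)-binding protein, had 62.8%, 47.3% and 34.3% in WAT, and Ttn, the sarcomere protein titin, had 68.7%, 46.3% and 48.1%. The remaining promoters were at 55.1%, 33.3% and 29.0% for Olfr517, an olfactory receptor, and at 61.1%, 35.2% and 45.7% for Krt39, a hair keratin. In the 4 other than Clstn3 the BWAT libraries lay between 45.0% and 54.6%, and no promoter of the 5 passed limma. The windows of Clstn3, Olfr517, Pabpc4, Ttn and Krt39 held only 4, 2, 5, 3 and 6 cytosines. Each transcript start has a window, and those of Clstn3 and Pabpc4 hold fragments 30972 and 32845 bp from the gene start.

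The higher promoters with the largest mean difference were Stx4a, Rab3il1, Asb6, Fam129a and Lrrc10. Stx4a encodes syntaxin 4, the plasma membrane SNARE through which GLUT4 vesicles fuse in fat and muscle. It had 35.3% in WAT D0, 58.6% in WAT D4, 58.1% in WAT D6, 46.2% in BWAT D4 and 53.6% in BWAT D6, and 55.5%, 63.6% and 61.9% in BAT D0, D4 and D6. Rab3il1, an exchange factor of Rab proteins, had 6.77%, 27% and 26.2% in WAT D0, D4 and D6, with 24.7% and 24.5% in BWAT (adjusted p = 0.320). Asb6, Fam129a and Lrrc10 reached 73.1%, 36.6% and 62.9% in WAT D6 from 50.7%, 15.3% and 42.7% in WAT D0. A promoter of the imprinted gene Snrpn, named after its values were seen, had 53.0%, 39.6% and 29.5% in WAT D0, D4 and D6 over 9 cytosines of 9 CpGs, so that no CpG was read on both strands, while BAT D0, D4 and D6 had 36.5%, 40.03% and 49.1%.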

How the data were processed

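Genomic DNA of cultured brown and white fat cells of the mouse was measured by RRBS after digestion with MspI and TaqαI. The authors aligned reads to mm9 with Bowtie (version not given in the sources used here) and deposited 1 table of percent methylation per CpG cytosine, each strand on its own, at a depth of at least 10 reads, without read counts. Groups came from the GEO labels, and all columns of the table were used. Members and gene lists were chosen with earlier results of these data known.

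Fragments and promoters were built with Python 3.11.15, numpy 2.4.6 and pandas 2.3.3, drawn with matplotlib 3.10.9, and annotated with GENCODE vM1 on NCBIM37. Tests used limma 3.58.1 in R 4.3.3, with white day 0, later white (WAT and BWAT), brown day 0 and later brown cells as 4 means over all 9 libraries. With 1 library per condition the lone day 0 library was assumed to vary like the later ones, and p-values measure only the spread between libraries, which may be technical. The part of fragment depth in a value could not be weighed, since the table gives percents alone. On simulated data for the white comparison over 67233 fragments, 51 of 100 with a logit shift of 2 and 0 of 100 with a shift of 1 were recovered, with 2 calls among 67033 unchanged ones. The simulated noise of a fragment had the same spread in every library, so the 2 calls say nothing about a deviating WAT D0. Shifts were given only to fragments of intermediate mean level.

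Genes named by rule were those of the first 10 fallen fragments with a gene, those of fallen fragments in the lists and those of the promoters with the largest mean difference. Of the list genes only Hk2 had a fallen fragment. List genes that met the difference rule alone, and all others, were named after their values were seen. Alternatives changed the smallest difference, gaps, cytosine minimum, restriction-site cytosines, offset, scale, model and libraries. One fragment is not reported here.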

Additional observations from a re-analysis of the deposited data

Results flagged for a closer look

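The change differed between white and brown cells in 1 fragment, by the limma test of the difference between the changes (4.24 on the logit scale, white minus brown, adjusted p = 0.049). It lies at chr3:73994542-73994660 with no gene within 10000 bp. The level was 86.2%, 90.8% and 91.4% in WAT D0, D4 and D6, 92.1% and 91.6% in BWAT D4 and D6, 100% in BAT D0, and 88.6%, 91.8% and 91.0% in BAT D4, BAT D6 and BAT D6 NE. The part of depth in the level of 100% was not tested.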

How the results depend on the processing

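The 14 fallen fragments became 8 with gaps of at most 100 bp, 8 with at least 6 cytosines and 57 with additive cell type and stage terms. They became 1 without the BWAT libraries and 0 with the 5 white libraries alone. Leaving out 1 later library at a time gave 1 to 6, and leaving out BAT D0 cannot change the count. With gaps of at most 100 bp 12 of the 14 were still present, and 4 of them (Hk2, Lrch1, Eif3d and Heatr5b) had adjusted p of 0.0533 to 0.0598. With at least 6 cytosines all 8 of the 14 that were left passed. The cause of the other counts was not tested. A smallest difference of 20 points gave 14, restriction-site cytosines left out 12, an offset of 5 13, untransformed percents 11 and all 4 later libraries asked 14. The 12 without restriction-site cytosines held 10 of the 14, and only these 10 still had a fragment to test. The 11 on untransformed percents held 8 of the 14, and the other 6 did not pass. The 0 risen fragments became 1 without restriction-site cytosines (Trio), 1 on untransformed percents (Fam83h) and 11 in the additive model, and leaving out libraries gave 0 to 0. The 1 fragment that differed between white and brown change became 0 with gaps of at most 100 bp, at least 6 cytosines, without restriction-site cytosines, with offset 5, on untransformed percents and without the BWAT libraries, and leaving out libraries gave 0 to 0. The 187 lower fragments became 46 at 20 points, 124 with at least 6 cytosines, 123 without restriction-site cytosines, 104 when asked of all 4 later libraries, and 519 to 622 without WAT D6 or WAT D4. The 177 higher ones became 3 at 20 points and 35 when asked of all 4, and 574 to 905 without WAT D6 or WAT D4. CpGs on both strands became 143 lower and 60 higher at 20 points. Promoters became 19 lower and 57 higher at 20 points, 140 and 279 in a window of 500 bp upstream to 250 bp downstream, and 147 lower without restriction-site cytosines. No named fragment reversed. By adjusted p alone, Pgd passed under 16 of its 17 alternatives, Sik3 under 14 of 18, Mmd under 13 of 18 and Hk2 under 6 of 16. These tallies include alternatives that cannot change the adjusted p of a fragment, so those passes were fixed in advance. They are the smallest difference of 20 points, all 4 later libraries asked and leaving out BAT D0. No paired analysis was possible because each group held 1 sample. Without WAT D0 no white comparison exists, and the depth per cytosine beyond the minimum is unknown.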

Other observations

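Further fragments that were lower or higher in white cells are given as values, named after these were seen. The largest lower one that did not pass the test lay in an exon of Zc3h12d, an RNA-degrading zinc finger protein, with 89.9% in WAT D0, 43.1% in WAT D4 and 31.9% in WAT D6 and 84.3%, 28.4% and 16% in BAT D0, D4 and D6 (adjusted p = 0.081). An intron of Foxp1, a forkhead repressor, had 83.1%, 56.1% and 49.4% in WAT (adjusted p = 0.118), and one of Rbm47, an RNA-binding protein, had 91.7%, 63.3% and 42.8% (adjusted p = 0.145). Of the remaining lists, that of adipokines and secreted factors had 1 higher fragment of 30 (Vegfa), that of the cell cycle 1 of 102 (Cdkn2a) and that of the DNA methylation machinery 1 of 84 (Gadd45g), each with 0 lower, and none passed limma. Vegfa, the vascular growth factor, had 67.4%, 80.6% and 80.7% in WAT D0, D4 and D6. Ece1, the endothelin-converting enzyme, had 47.9%, 73.7% and 64.3% in WAT beside 48.5%, 43.4% and 41.1% in BAT D0, D4 and D6. Gadd45g, of a family linked to active demethylation, had 13.2%, 23.4% and 26.4%, and Cdkn2a, the locus of 2 cell cycle inhibitors, had 15.6%, 31.1% and 29.2%.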
